A study of Mus musculus with 6 samples.

Results

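The genes described here are the 6 mouse members of the Ajuba and zyxin family of LIM proteins, Ajuba, Limd1, Wtip, Zyx, Lpp and Trip6, in intestinal crypts of mice with activated YAP. They were chosen by gene symbol among the 19938 genes measured, all 6 were measured, and for each the probe set with the highest mean signal over the 6 arrays was used. That choice mattered for Lpp, which had 3 probe sets (mean log2 signals of 9.92, 8.60 and 4.95), while the other genes had 1 each. The family was picked for description with earlier results of the same comparison known, in which Ajuba stood among the largest increases. The change of Ajuba is therefore given as a description without a test, and the calls of the other 5 are not independent evidence about the family.

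Total RNA was measured on Affymetrix arrays from freshly isolated crypts, the pits of the gut epithelium in which its stem cells divide, with 1 array per mouse. One group was YAP Tg, with 3 mice, and the other was labelled control, also with 3 mice. The series title names the line as YAP-S127A Villin-rtTA: a YAP that lacks a serine phosphorylated by the Hippo kinases, with the doxycycline-responsive activator rtTA under the promoter of villin, an epithelial gene. Doxycycline was given for 2 days. The labels do not say whether controls were given it, nor which transgenes, strain, age or sex any of the mice had, so the drug and the transgene cannot be told apart here.

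LIM domains are paired zinc fingers that bind other proteins, and every protein of this family carries several of them in tandem at its carboxyl end. Ajuba, LIMD1 and WTIP form one branch. They shuttle between cell junctions and the nucleus, and in flies and mammals they bind the LATS kinases of the Hippo pathway, the kinases that keep YAP out of the nucleus, and hold them back. Zyxin, LPP and TRIP6 form the other branch; they sit at focal adhesions and cell junctions, where they bind proteins that build and bundle actin filaments.

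The promoters of the members with a match to the motif of TEAD factors, the DNA-binding partners of YAP, in their first or only start are shown first, so that the sequence can be read beside the values. No relation between matches and changes was tested. RefSeq promoters of the mouse build GRCm38.p6, from 250 bases before to 50 bases after the gene start, were found for 5 of the 6 genes, and Lpp had 2 starts. The motif searched was CATTCC on both strands, and no match in these promoters overlapped a match to the other motifs searched. Matches on either strand are in capitals, so that a match on the opposite strand reads GGAATG. The promoters of Ajuba (chr14:54577612-54577911, minus strand), Wtip (chr7:34133219-34133518, minus strand) and Trip6 (chr5:137314192-137314491, minus strand) each read 5′ to 3′ as follows.
Ajuba: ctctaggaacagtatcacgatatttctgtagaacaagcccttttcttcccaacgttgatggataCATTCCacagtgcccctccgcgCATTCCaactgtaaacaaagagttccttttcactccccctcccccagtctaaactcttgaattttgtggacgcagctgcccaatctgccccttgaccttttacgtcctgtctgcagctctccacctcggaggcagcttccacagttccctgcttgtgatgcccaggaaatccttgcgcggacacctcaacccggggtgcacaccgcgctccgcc
Wtip: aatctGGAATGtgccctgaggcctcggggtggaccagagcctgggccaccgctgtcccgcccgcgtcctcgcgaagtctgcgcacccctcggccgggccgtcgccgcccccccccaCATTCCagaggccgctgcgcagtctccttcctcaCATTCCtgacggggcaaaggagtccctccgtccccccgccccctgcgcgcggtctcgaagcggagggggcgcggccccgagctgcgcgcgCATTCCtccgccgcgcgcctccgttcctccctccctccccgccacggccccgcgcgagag
Trip6: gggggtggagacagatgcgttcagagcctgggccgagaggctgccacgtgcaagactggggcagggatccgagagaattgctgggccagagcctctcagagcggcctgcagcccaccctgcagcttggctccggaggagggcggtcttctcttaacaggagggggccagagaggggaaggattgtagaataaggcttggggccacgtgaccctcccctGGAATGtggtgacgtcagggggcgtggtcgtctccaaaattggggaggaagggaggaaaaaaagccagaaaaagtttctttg

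The Ajuba promoter held 2 matches, which start 186 and 164 bases before the gene start. The Wtip promoter held 4, at 245, 134, 100 and 10 bases before the start. Of 32851 promoters of the same length, 14.7% held at least 1 match, 1.36% held at least 2, and 6 promoters, or 0.0183%, held 4 or more. Trip6 had 1 match, 32 bases before its start, and the second start of Lpp had 1, 182 bases before it. The Zyx promoter and the first start of Lpp had none. Of other motifs searched on both strands, the AP-1 motif TGANTCA was found once in the Zyx promoter, 121 bases before the start, and is held by 7.81% of promoters. The CArG box of serum response factor was found once in the Trip6 promoter, just past the start, and is held by 1.63% of promoters. A match says that these letters are present, not that a factor binds there. Among promoters of all genes called higher in YAP Tg crypts 14.7% held at least 1 CATTCC, against 13.2% among promoters of all genes tested.

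**Figure D1:**
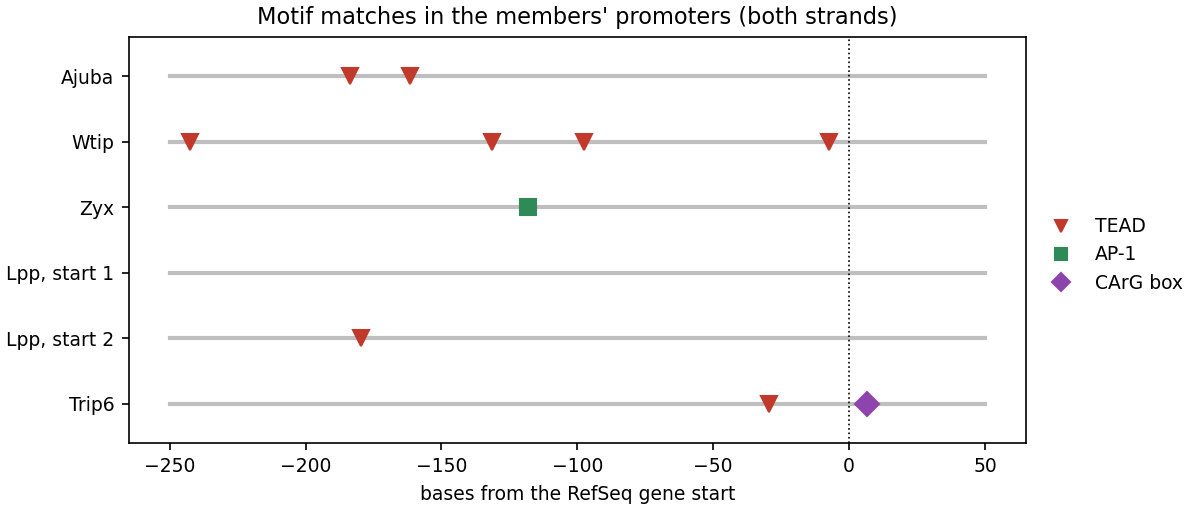
Positions of motif matches in the RefSeq promoters of 5 members, in bases from the gene start (dotted line), with each grey line running from 250 bases before to 50 bases after it. Red triangles mark the TEAD motif, the green square AP-1 and the purple diamond the CArG box. Wtip has 4 red triangles and Ajuba 2, while Zyx and the first Lpp start have none.

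Some facts of the arrays bear on every value below. Median log2 signals of the 19938 genes lay between 6.74 and 6.79 on all arrays, but the spread of signals differed. Upper quartiles were 8.45, 8.66 and 8.49 in YAP Tg mice 1, 2 and 3, and 8.60 to 8.69 in controls. Lower quartiles were 5.52, 5.43 and 5.57, and 5.41 to 5.47 in controls. Presumed control probe sets had medians of 5.33, 5.15 and 5.03, and 4.97 to 4.99 in controls. The part of these differences in the values of single genes was not tested. The YAP Tg arrays differed more among themselves (Pearson's r 0.978 to 0.989 across genes) than the control arrays did (0.996 to 0.997). On the first principal component, which held 74.97% of the variance, YAP Tg mice 1, 2 and 3 stood at -58.9, -18.8 and -34.8, and the controls at 35.3 to 40.4. YAP Tg mouse 2 was thus nearest the controls on that component. On the second, which held 13.4% of the variance, it stood apart at -36.1, with all other arrays at 2.08 to 12.5. The median SD of a gene was 0.159 log2 units among YAP Tg arrays and 0.0823 among control arrays. Yap1 itself differed by -0.24 (limma's adjusted p = 0.184). No source used here says if its probe set reads the transgene, so it is no check on the labels.

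Changes are log2 differences, YAP Tg minus control, and a gene is called where limma's test across all genes gave a Benjamini-Hochberg adjusted p below 0.05. In that fit 7.5% of all genes were called higher and 6.7% lower. Of the 5 members besides Ajuba, 2 were called higher, Wtip and Zyx, and 0 were called lower; at an unadjusted p below 0.05 there were 3 higher and 1 lower, where 13.7% and 16.2% of all genes were. Among all 6 members, 4 had every YAP Tg value above every control value and 1 had every YAP Tg value below, while the groups overlapped for Lpp. Over all genes the groups were likewise apart, in the higher direction, for 16.5% and, in the lower, for 17%. Because the family was picked with these results known, nothing is read from these counts. In whole crypts, more or fewer cells of a type and more or less RNA per cell cannot be told apart.

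Ajuba, which binds LATS kinases at cell junctions and also the Aurora A kinase in mitosis, stood far higher in YAP Tg crypts. Its log2 signal was 9.76, 9.84 and 9.78 in YAP Tg mice 1, 2 and 3, against 5.87, 6.11 and 5.59 in control mice 1, 2 and 3. The lowest YAP Tg value lay 3.64 log2 units above the highest control value. The means were 9.79 ± 0.04 in YAP Tg and 5.86 ± 0.26 in control crypts (SD, n = 3 each), a difference of 3.94 (SE 0.14), or 15.3-fold on the array's scale. This was the 9th largest increase of all genes, and 0.0853% of genes had a larger change in either direction. The 3 YAP Tg mice had nearly the same Ajuba signal although their arrays differed widely elsewhere: 8.86% of genes had a smaller SD among the YAP Tg arrays. With any 1 mouse left out the difference was between 3.80 and 4.06. The control values lay above the median of the array's presumed control probe sets, which was 4.97 to 4.99 on the control arrays. So did 82.2% to 83.3% of all genes there, and the lower quartile of genes was 5.41 to 5.47. The control signal of Ajuba was thus low, and the part of background in it, and so in the fold, was not tested.

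The genes beside Ajuba in RefSeq order on chromosome 14 were not called. Haus4, which encodes a subunit of the augmin complex of the spindle, differed by -0.38 (limma's adjusted p = 0.30), and 4931414P19Rik by -0.37 (0.114). The 5 genes whose values over the 6 arrays, taken minus each gene's control mean, were most like those of Ajuba were Wwc2, Capn2, Gcnt1, Mboat1 and Pla1a. Their root mean square differences from Ajuba over the 6 arrays were 0.208, 0.234, 0.351, 0.363 and 0.377 log2 units. Wwc2, which resembles the Hippo regulator Kibra, had a log2 change of 4.10. Capn2, a calpain protease, had one of 3.85. Any gene with a change near 3.94 and steady groups comes out as like Ajuba by this measure.

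Wtip, the Ajuba relative first described as a partner of the Wilms tumour protein WT1, also rose. Its log2 signal was 8.12, 8.82 and 8.60 in YAP Tg mice 1, 2 and 3, against 7.11, 7.43 and 7.39 in control mice 1, 2 and 3. The groups were 0.690 log2 units apart. The means were 8.51 ± 0.36 in YAP Tg and 7.31 ± 0.17 in control crypts (SD, n = 3 each), a difference of 1.20 (SE 0.19, limma's adjusted p = 0.0119), or 2.30-fold with a 95% interval of 1.66 to 3.19. The difference stayed between 1.05 and 1.40 with any 1 mouse left out. The call was lost with YAP Tg mouse 3 left out (adjusted p = 0.0535) and with control mouse 1, 2 or 3 left out (0.0624, 0.0515 and 0.0571).

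Limd1, the third of the Ajuba branch and a scaffold also for microRNA silencing and oxygen sensing, was not called. Its log2 signal was 7.85, 8.67 and 8.14 in YAP Tg mice 1, 2 and 3, against 8.80, 8.96 and 8.75 in control mice 1, 2 and 3. All YAP Tg values lay below all control values, but that of YAP Tg mouse 2 by only 0.0756. The means were 8.22 ± 0.41 in YAP Tg and 8.84 ± 0.11 in control crypts (SD, n = 3 each). The difference of -0.61 (SE 0.21) was not called (limma's adjusted p = 0.109), with a 95% interval of -1.12 to -0.11. Without YAP Tg mouse 2, the mouse nearest the controls on the first principal component, it was -0.84 and was called (limma's adjusted p = 0.00536). In that fit 3889 of all genes were called lower, against 1336 with all mice, so the call is not particular to Limd1. The nearest measured protein-coding neighbours of Limd1 on chromosome 9 stood lower, Lars2, a mitochondrial leucyl-tRNA synthetase, by -0.76 (limma's adjusted p = 0.0642) and Sacm1l, a phosphoinositide phosphatase, by -0.32 (0.0403, called). Such neighbours of the members described below and of Wtip were not called. They differed by 0.04 and -0.19 for Wtip, 0.18 and 0.43 for Zyx, 0.15 and 0.18 for Lpp, and -0.21 and -0.24 for Trip6.

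Set side by side within the Ajuba branch, the measured change of Ajuba minus that of Wtip was 2.73 log2 units, that of Ajuba minus Limd1 4.55 and that of Limd1 minus Wtip -1.82. These differences are a description and were not tested. Wtip minus Limd1 had an SD of 0.156 among the YAP Tg mice and 0.167 among controls. In YAP Tg mice each gene alone had an SD of 0.36 and 0.41. This was not particular to the branch. Against Trip6, of the zyxin branch, the SD among YAP Tg mice was 0.101 for Wtip and 0.083 for Limd1. Both Wtip and Limd1 were lowest in YAP Tg mouse 1 and highest in mouse 2. The YAP Tg mouse with the highest Wtip was therefore the one whose Limd1 was closest to the controls.

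**Figure D2:**
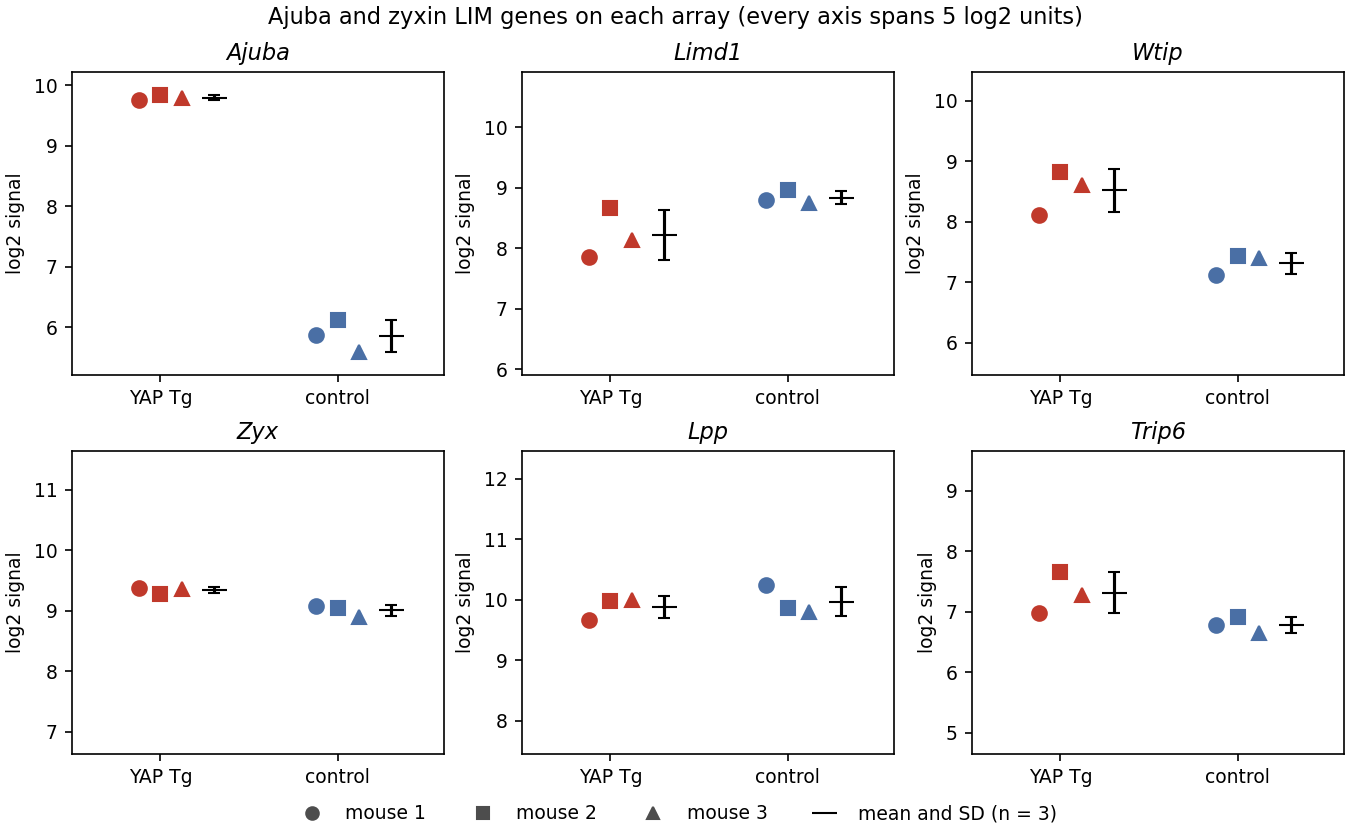
Log2 signal of each member on each of the 6 arrays, with YAP Tg mice in red, control mice in blue, marker shape for the mouse number within its group, and the black mark with bars for the mean and SD of 3 mice. Every panel spans 5 log2 units, and levels of different genes are not comparable. The Ajuba groups are 3.64 log2 units apart, the Wtip groups 0.690, and the Lpp groups overlap.

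Zyx encodes zyxin, which recruits Ena/VASP proteins to actin filaments under tension. Its log2 signal was 9.37, 9.28 and 9.36 in YAP Tg mice 1, 2 and 3, against 9.08, 9.04 and 8.90 in control mice 1, 2 and 3. The groups did not overlap, with 0.207 log2 units between them. Zyx rose by a small amount: the means were 9.34 ± 0.05 in YAP Tg and 9.004 ± 0.09 in control crypts (SD, n = 3 each), a difference of 0.33 (SE 0.08, limma's adjusted p = 0.0375), or 1.26-fold with a 95% interval of 1.11 to 1.43. As for Ajuba, the YAP Tg mice were close together, and 10.4% of genes had a smaller SD there. Leaving out YAP Tg mouse 1 or 3 ended the call (adjusted p = 0.0929 and 0.0944), as did leaving out control mouse 1, 2 or 3 (0.0957, 0.114 and 0.117).

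Trip6, which binds the receptor for lysophosphatidic acid LPAR2 and, like the Ajuba branch, LATS kinases, had log2 signals of 6.99, 7.66 and 7.28 in YAP Tg mice 1, 2 and 3, against 6.78, 6.91 and 6.64 in control mice 1, 2 and 3. All YAP Tg values were above all control values, that of YAP Tg mouse 1 by only 0.0705. The means were 7.31 ± 0.34 in YAP Tg and 6.78 ± 0.14 in control crypts (SD, n = 3 each). The difference of 0.53 (SE 0.18) was not called (limma's adjusted p = 0.110), with a 95% interval of 0.10 to 0.96. Without YAP Tg mouse 1 it was 0.69 and was called (limma's adjusted p = 0.049). The measured difference was larger than that of Zyx, but the spread among YAP Tg mice was larger too. The change of Zyx minus that of Trip6 was -0.20 log2 units, which was not tested.

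Lpp, the lipoma preferred partner, a junction and adhesion protein that binds alpha-actinin and VASP, had no call on any of its 3 probe sets. On the one with the highest signal the values were 9.67, 9.97 and 9.998 in YAP Tg mice 1, 2 and 3, against 10.2, 9.87 and 9.80 in control mice 1, 2 and 3. The groups overlapped, and both the lowest and the highest value came from a mouse numbered 1. The difference was -0.09 (SE 0.15, limma's adjusted p = 0.724), with a 95% interval of -0.46 to 0.28. A second probe set read 8.83, 8.80 and 8.65 in YAP Tg mice 1, 2 and 3, against 8.63, 8.47 and 8.22 in control mice 1, 2 and 3. There the groups were just apart, at a difference of 0.32 (SE 0.12, limma's adjusted p = 0.142 in a fit of every named probe set). The third lay near the array controls at a mean of 4.95 and differed by 0.17. The probe sets thus did not give Lpp one direction, and their mean differed by 0.14 (limma's adjusted p = 0.365).

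Across the family, 4 members, Ajuba, Wtip, Limd1 and Trip6, had their lowest YAP Tg value in mouse 1 and their highest in mouse 2, an order seen in 20.4% of all genes. The order was picked once the values of the members were seen, so nothing is read from this count. For Ajuba these values lay close together, between 9.76 and 9.84. Relative to the control mean, Wtip stood at 0.81, 1.51 and 1.29 and Trip6 at 0.20, 0.88 and 0.50 in YAP Tg mice 1, 2 and 3. Both were thus farthest from the controls in mouse 2, the mouse that lay nearest to them on the first principal component. Limd1 was nearest to the controls in that mouse (-0.98, -0.17 and -0.70).

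**Figure D3:**
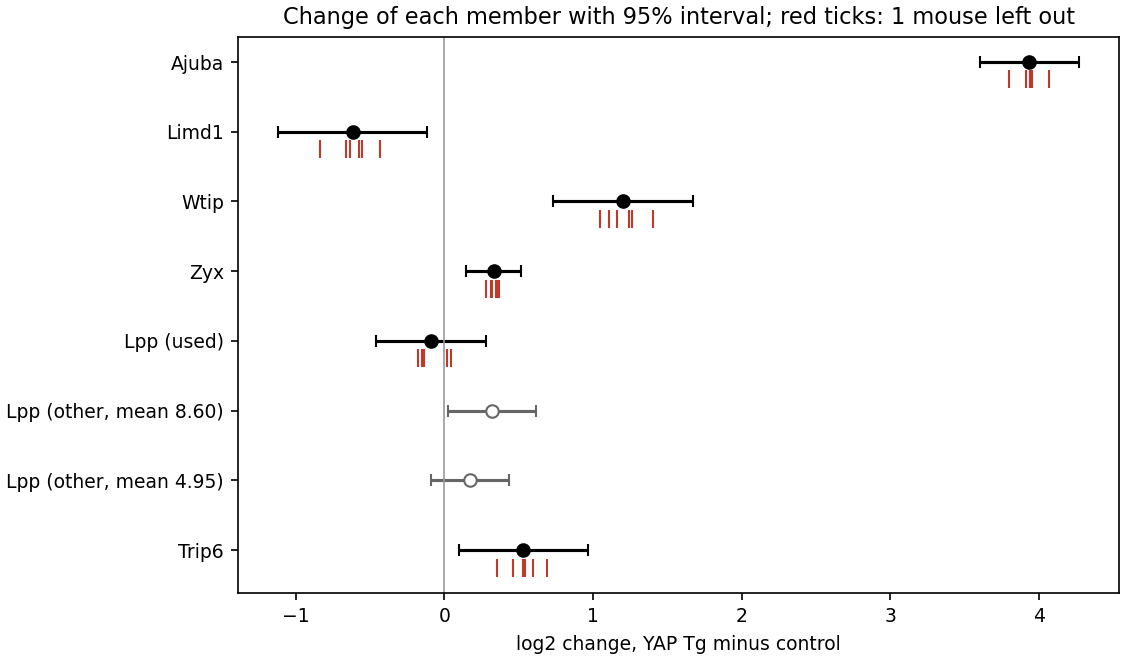
Log2 change of each member, YAP Tg minus control (horizontal axis), as black points with 95% intervals of limma's fit, and red ticks for the values with 1 of the 6 mice left out; open grey points are the other Lpp probe sets, labelled by their mean log2 signal. Ajuba lies at 3.94 and Wtip at 1.20, while the interval of the Lpp probe set used runs from -0.46 to 0.28.

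Genes of the structures that these proteins bind or sit in were counted on 7 lists, 101 measured genes in all, beside 7.5% of all genes called higher, 6.7% called lower and a median change of all genes of 0.03. The lists were drawn up with earlier results of these data known. Leaving out a mouse also moved the calls over all genes, which were 1495 higher and 1336 lower with all mice. Without YAP Tg mouse 2 they were 2802 higher and 3889 lower. With 1 control left out they were 669 to 737 higher and 369 to 462 lower. Without YAP Tg mouse 1 they were 1141 and 890, and without YAP Tg mouse 3 they were 1068 and 811. Nothing about the lists is read from their leave-out counts. Of 7 partners that zyxin and LPP recruit, the Ena/VASP proteins and alpha-actinins, 3 were called higher and 0 lower, by adjusted or unadjusted p, with a median change of 0.18. Actn4, an alpha-actinin outside muscle, had a log2 change of 0.72 (SE 0.07 and limma's adjusted p = 0.00194), Evl one of 0.51 and Vasp one of 0.43. The muscle alpha-actinins Actn3 and Actn2 differed by 0.18 and 0.13 and were not called. Nor was Actn1, the other alpha-actinin outside muscle, at -0.20, a gene picked once values were known. With control mouse 1 or 2 left out 1 was called higher, and with control mouse 3, YAP Tg mouse 1 or YAP Tg mouse 3 left out 2 were. Without YAP Tg mouse 2, 1 was called lower.

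Of 14 core focal adhesion genes 6 were called higher and 1 lower (median 0.49). Itgav, the integrin chain alpha V, had a log2 change of 1.44 (SE 0.14 and limma's adjusted p = 0.00221), the integrin activator talin (Tln1) one of 0.75, the integrin-linked kinase Ilk one of 0.59 and the Cas scaffold Bcar1 one of 0.50. The one called lower, named after its value was seen, was Itga5, at -0.60. Itgb5 and the kinase Src differed by 0.64 and 0.56 without a call. With any 1 control or YAP Tg mouse 3 left out 3 were higher. The 1 lower was not called without control mouse 1 or 2 or without YAP Tg mouse 1 or 3.

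Of 7 adherens junction genes 5 were called higher and 0 lower, or 6 and 0 by unadjusted p (median 0.58). Afdn, the scaffold afadin, changed by 0.96 (SE 0.12 and limma's adjusted p = 0.0053) and Nectin2, the adhesion molecule that afadin holds, by 0.77. Ctnna1, the alpha-catenin to which Ajuba binds, changed by 0.58 (SE 0.08 and limma's adjusted p = 0.00579) and the p120 catenin Ctnnd1 by 0.65. Ctnnb1 and Jup differed by 0.21 and 0.23 and were not called. With any 1 mouse left out 4 to 6 were called higher.

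Of 18 genes of actin and of serum response factor, 10 were called higher and 1 lower (median 0.38). They included the calponin Cnn2 (1.51, SE 0.14, limma's adjusted p = 0.00223), the immediate early gene Fos (1.38), Tagln2 (0.98) and the non-muscle myosin chain Myh9 (0.82). The one called lower, named after its value was seen, was Cnn3 (-0.98). The smooth muscle genes Acta2 and Tpm2 differed by 0.12 and 0.13 without a call. With any 1 control left out 5 were called higher and 0 lower, and without YAP Tg mouse 3 there were 7 and 0.

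Of 25 other LIM proteins 8 were called higher and 1 lower (median 0.18). Pdlim2 rose by 1.78 (SE 0.20 and limma's adjusted p = 0.00376), Lpxn, the paxillin relative leupaxin, by 1.10 (SE 0.07 and limma's adjusted p = 0.000913), Tes, the zyxin-binding protein testin, by 0.93, and the cofilin kinase Limk1 by 0.89. Fhl1, the one called lower and named after its value was seen, changed by -0.60. Micall1 and Limk2 differed by 0.31 and 0.27 and were not called. The 8 became 4 with any 1 control left out and 5 without YAP Tg mouse 3. Without YAP Tg mouse 2 there were 10 higher and 4 lower, and with any other mouse left out 0 were lower.

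Of 11 Hippo proteins among which the Ajuba branch acts, 4 were called higher and 0 lower, or 5 and 1 by unadjusted p (median 0.14). Besides Wwc2 they were Kibra (Wwc1, 2.02), Wwtr1, the YAP paralog (1.90), and Lats2 (1.65, SE 0.11, limma's adjusted p = 0.000872), a LATS kinase. Lats1, also a LATS kinase and named after its value was seen, differed by -0.11 and was not called (limma's adjusted p = 0.545). Nf2, the tumour suppressor merlin, differed by -0.52 and the adaptor Sav1 by 0.22, without a call. With any 1 mouse left out 4 or 5 were called higher, and without YAP Tg mouse 2 there was 1 lower.

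Of 21 other proteins reported to bind members of the family, 0 were called in limma's test, with 3 higher and 2 lower at an unadjusted p below 0.05, 0 by the linear model without moderation, and a median of 0.02. The GTPase Rac1 differed by 0.30 (limma's adjusted p = 0.0517) and the retinoblastoma gene Rb1 by 0.37. Without YAP Tg mouse 2 there were 3 higher and 4 lower, and without YAP Tg mouse 3 there was 1 higher.

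**Figure D4:**
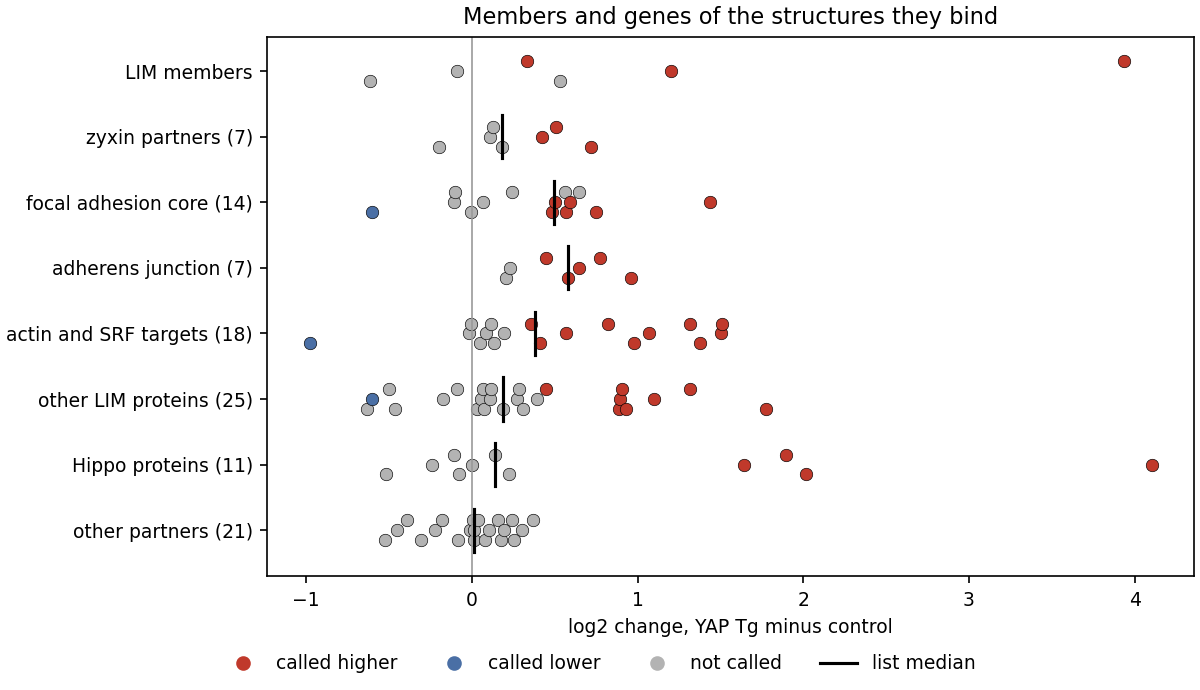
Log2 change, YAP Tg minus control, of the 6 members (top) and of the measured genes on 7 lists of their partners and neighbours, with list sizes in brackets, genes called higher in red, called lower in blue and not called in grey, and black bars at the list medians. Adherens junction genes lie to the right with a median of 0.58, and the other partners gather around 0 with a median of 0.02.

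Markers of other cells were read beside these values. All 9 markers of T cells and intraepithelial lymphocytes were called higher: their mean log2 level was 10.9 to 11.1 in YAP Tg and 9.48 to 9.74 in control crypts, with a median change of 1.37. Evl and Lpxn are known to be expressed in blood cells, and Vasp and Zyx in many cell types. The part of the lymphocyte markers in the changes of the members was not tested. Of 7 epithelial markers 4 were called higher, with a mean level of 12.72 to 12.76 in YAP Tg and 12.15 to 12.25 in control crypts. The called ones were Krt18 (1.53), Krt20 (1.09), Cdh1 (0.45), which is also on the adherens junction list, and Krt8 (0.28). Epcam, Vil1 and Krt19 differed by 0.18, 0.10 and 0.12 without a call. Of 7 smooth muscle markers 0 were called by limma, with 1 higher at an unadjusted p below 0.05; their mean level was 5.79 to 5.99 in YAP Tg and 5.76 to 5.89 in control crypts. Of 7 fibroblast markers 1 was called higher, Vim (0.95, named after its value was seen), at mean levels of 6.80 to 7.15 in YAP Tg and 6.42 to 7.04 in control crypts. Of 5 macrophage markers 2 were called higher, Csf1r (0.85) and Cd68 (0.61), both named after their values were seen, at mean levels of 6.74 to 7.04 in YAP Tg and 6.66 to 6.71 in control crypts. Lyz2 and Cd14 differed the other way, by -0.37 and -0.33, and Adgre1 by 0.41, without a call. Summed without logs, the signal of the 5 markers was 922 to 1111 in YAP Tg and 971 to 1322 in control crypts. The macrophage list thus had no single direction. Endothelial and platelet markers, 5 and 4 genes, had 0 calls by limma, with 1 and 0 at an unadjusted p below 0.05. Their mean levels were 5.36 to 5.45 and 5.22 to 5.50 in YAP Tg crypts, and 5.27 to 5.34 and 5.22 to 5.33 in control crypts.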

How the data were processed

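Total RNA of crypts released with EDTA was labelled with biotin and hybridised to Affymetrix arrays, 1 per mouse, per the labels' protocols. The authors deposited log2 signals of 35556 probe sets, and the submitters' processing notes name the Affymetrix Expression Console, version 1.1. That the scale is log2 was judged from the values; the normalization: not given in the sources used here. Every fold is relative to the array's overall level, so a change common to all genes would not show, and depth has no counterpart here: the number of arrays limits the precision. Groups and numbers were taken from the sample titles, and samples were counted as separate mice. Probe sets with 1 symbol (21789) gave 19938 genes, 1621 had several symbols and were not named, and 6617 numbered below the first named one were taken to be array controls. Entrez identifiers matched 21698 probe sets to RefSeq and changed 0 symbols.

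Genes were tested two-sided with limma's lmFit and eBayes (limma 3.58.1, R 4.3.3) without covariates, with Benjamini-Hochberg adjustment across all genes. The test was checked on simulated data in which each gene had the same SD in both groups. In the real data the median SD was 0.159 among YAP Tg and 0.0823 among control arrays, and the check does not cover such unequal spread. Named genes are the members, per list up to 4 called genes with the smallest p and up to 2 others, and the 5 genes most like Ajuba, leaving out clone-like symbols. The members and lists were chosen with earlier results of these data known. Alternatives were each mouse left out, the replicate number as a block, 2 normalizations, 2 signal filters, other priors and weights, other uses of probe sets and another threshold. Arrays with the same number were not paired: their deviations from the group means correlated at -0.13, 0.01 and 0.10.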

Additional observations from a re-analysis of the deposited data

How the results depend on the processing

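Ajuba stood higher by 3.80 to 4.06 log2 units in all 17 alternatives. Wtip stood higher in all 17 (1.05 to 1.40) and was called in 11, at an adjusted p of 0.00355 to 0.0808. Zyx did so by 0.28 to 0.42 and was called in 8 (0.0211 to 0.117). Limd1 (-0.84 to -0.43) and Trip6 (0.35 to 0.69) kept their direction and were called in 2 each. Lpp ranged from -0.18 to 0.14 and was called in none of the 17.

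With 1 mouse left out, 0 to 2 of the 5 members besides Ajuba were called higher and 0 to 1 lower. Over all genes there were then 669 to 2802 higher and 369 to 3889 lower, and among the context genes (34 higher and 3 lower with all mice) 21 to 43 and 0 to 12. The highest counts of all genes and of context genes came without YAP Tg mouse 2. The replicate block used numbers that are not known to pair the mice. It gave 1 member higher (Wtip), with 975 genes higher and 727 lower against 1495 and 1336 without it. Of the 3 YAP Tg arrays, 1, number 3, matched its own number best. Array weights gave 3 members besides Ajuba higher (Wtip, Zyx and Trip6) and 1 lower (Limd1). Over all genes they gave 2459 higher and 3481 lower, and among context genes 40 higher and 8 lower. The trended and robust prior gave 1 member higher. An adjusted p below 0.01 left 0 members higher, 661 and 386 genes, and 22 and 0 context genes. Without moderation there were 0 members higher, 578 and 312 genes, and 17 and 0 context genes. Among genes above the median signal 1 context gene was lower. Of 238 counts of single lists, 183 stayed within 1.5 times. The cause of these shifts was not tested; leaving out a mouse and dropping moderation also lower the degrees of freedom.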
